A study of Mus musculus with 8 samples.

Results

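Pvalb, Syt2 and Cox6a2, 3 of the 32285 genes in the count matrices, were followed through 8 coronal brain sections of p16-3MR mice. Pvalb encodes parvalbumin, a cytosolic calcium buffer. Syt2 encodes synaptotagmin 2, a calcium sensor for fast transmitter release. Cox6a2 encodes the heart and muscle form of a small subunit of cytochrome c oxidase, the last complex of the respiratory chain. The genes were found by their symbols and were chosen by their UMI counts across groups and areas of these same sections, so their levels by group, area and spot are given as a description, with no test. Over all sections Pvalb had 69156 UMIs (unique molecular identifiers, each standing for 1 captured transcript) in 12940 of 21328 spots, Cox6a2 had 15027 UMIs in 7415 spots and Syt2 had 8368 UMIs in 4676 spots.

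Visium slides, which capture polyadenylated RNA in spots 55 µm across, were used on fresh frozen sections 10 µm thick, 2 per group. All mice carried 3MR, a fusion of a red fluorescent protein and viral thymidine kinase driven by the p16 promoter, and were labelled male, 9 to 10 months old and sampled 6 months after the paclitaxel (PTX) protocol. Control mice had vehicle. PTX mice had PTX at 5 mg/kg/day in 2 cycles of 5 days with 7 days between them, followed by vehicle. PTX+GCV mice then received ganciclovir at 25 mg/kg/day, a prodrug that kills cells containing the thymidine kinase, and PTX+ABT263 mice received the BCL-2 family inhibitor ABT263 (navitoclax) at 1.5 mg/kg/day, each in 2 cycles of 5 days with 2 weeks between. The sources do not say if both sections of each group are from different animals, so every error below measures the spread between sections, which may be technical. The sections labelled PTX+ABT263 held 754 and 695 UMIs of Xist and 17 and 0 UMIs of Ddx3y, against 0 to 1 and 711 to 1350 UMIs in the other 6 sections, which goes against the male label. Any difference of these sections from the rest therefore carries that mismatch with it. Sections kept 2346 to 2839 spots and 19870666 to 42886400 UMIs, with medians of 7583 to 15715.5 UMIs a spot and 9.58% to 15.003% mitochondrial UMIs. Section pairs shared 1267 to 2506 spot barcodes, which are slide positions and not cells.

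In the neocortex, fast-spiking basket and chandelier cells are the inhibitory neurons that fire long trains of brief spikes and inhibit pyramidal cells at and near the soma. Parvalbumin shapes calcium transients in their terminals, synaptotagmin 2 triggers tightly timed GABA release there, and a high density of mitochondria feeds the firing. Each gene is also used elsewhere: parvalbumin and Cox6a2 in skeletal muscle, parvalbumin in the inhibitory neurons of the reticular thalamic nucleus and in some relay neurons, and synaptotagmin 2 at fast synapses of the brainstem. A 55 µm spot can hold several cells, so a UMI of these genes was not assigned to a cell.

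In the GENCODE annotation of GRCm38, Pvalb (ENSMUSG00000005716) covers 15287 bp of the minus strand at chr15:78191114-78206400, with 4 to 5 exons and no overlapping gene. Syt2 (ENSMUSG00000026452) covers 115917 bp of the plus strand at chr1:134646677-134762593, with 3 to 10 exons, and overlaps Ppp1r12b on the other strand. Cox6a2 (ENSMUSG00000030785) covers 953 bp of the minus strand at chr7:128205435-128206387, with 3 exons, and lies within Itgad, which is on the plus strand. Whether the counting used strand is not given in the sources used here, so reads of Syt2 and Cox6a2 may include some of their overlapping partners.

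RefSeq promoter windows, 250 bases before to 50 after the start on GRCm38.p6, were available for Pvalb and Syt2 and are shown because Esrrg, an oestrogen-related receptor, was among the genes whose levels across clusters were most like both. In each line the capitals mark a short motif, searched on both strands with no overlap between the motifs and chosen after the windows were seen. CTATTTA, an A/T-rich stretch that was not assigned to a factor, was found in 2.91% of 32851 promoter windows (955). AAGGTCA, the core of the element that oestrogen-related receptors bind, was found in 4.72% (1550) and lies on the other strand in the Syt2 window, where it reads TGACCTT.
Pvalb, chr15:78206351-78206650, minus strand: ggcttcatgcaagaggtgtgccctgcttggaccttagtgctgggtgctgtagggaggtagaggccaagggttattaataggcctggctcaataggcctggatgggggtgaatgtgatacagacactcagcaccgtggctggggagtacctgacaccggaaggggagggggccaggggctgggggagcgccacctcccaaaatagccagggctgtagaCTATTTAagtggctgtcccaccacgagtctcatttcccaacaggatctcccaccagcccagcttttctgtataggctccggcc
Syt2, chr1:134646362-134646661, plus strand: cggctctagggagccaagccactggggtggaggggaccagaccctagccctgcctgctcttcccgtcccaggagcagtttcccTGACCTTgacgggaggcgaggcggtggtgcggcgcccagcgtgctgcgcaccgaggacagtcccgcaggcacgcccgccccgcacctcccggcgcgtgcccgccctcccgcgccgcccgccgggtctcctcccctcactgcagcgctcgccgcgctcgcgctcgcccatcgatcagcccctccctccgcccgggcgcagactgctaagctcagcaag
The Pvalb window held CTATTTA and the Syt2 window the receptor motif. GC content was 58.3% for Pvalb and 74.3% for Syt2, against a median of 52.7% over all windows. The alternative start of each gene, at chr15:78204188-78204487 (GC 67.7%) and chr1:134709050-134709349 (GC 68.3%), held neither motif. A match is a description of letters and not of binding.

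The areas below come from clusters of spots built without the 3 genes and without the other fast-spiking genes, named from marker lists. Levels are CPM, here counts scaled to the TMM-adjusted total UMIs of the same spots, and are compared for 1 gene at a time. Pvalb was highest in the reticular thalamic and pallidal area, a cluster of 381 spots led by Six3 and Spp1, at 4247 ± 340 CPM (SD, n = 8 sections). This name rests on 1 marker among the 10 leading genes, so reticular nucleus and pallidum were not told apart. The same rule gave the name to a finer cluster led by Sst and Crhbp, with Pvalb at 72.5 ± 19.9 CPM. Pvalb was 360 ± 137 CPM in fiber tracts, 351 ± 69.6 CPM in thalamus, 291 ± 72.7 CPM in isocortex and 152 ± 48.9 CPM in hippocampus. At the low end lay the choroid plexus at 66.6 ± 20.6 CPM, the piriform and amygdalar cortex at 53.1 ± 11.4 CPM and a cluster led by Ucn3 at 32.3 ± 9.24 CPM. The reticular and pallidal area exceeded the next area in 8 of 8 sections and the thalamus exceeded the isocortex in 7 of 8, whereas fiber tracts exceeded the thalamus in only 3 of 8 and hypothalamus and striatum could not be ordered (4 of 8).

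Syt2 followed the same first place and then a different order. Its level was 205 ± 50.5 CPM in the reticular and pallidal area, 54.4 ± 23.2 CPM in fiber tracts, 46.8 ± 11.2 CPM in isocortex, 34.95 ± 6.34 CPM in hypothalamus, 30.2 ± 10.7 CPM in striatum and 22.4 ± 5.82 CPM in thalamus. Fiber tracts and isocortex did not differ in order (4 of 8 sections each way). Finer clusters 6 and 10, both named fiber tracts, had lower levels than the main fiber tract area. Syt2 was 13.8 ± 5.89 and 16.9 ± 9.31 CPM in them, and Pvalb 217 ± 75.3 and 216 ± 88.0 CPM. Which other spots raised the level of the main area was not tested. A finer cluster of 1275 spots led by the cholinergic transporter gene Slc5a7 and by Slc10a4 had Pvalb at 390 ± 131 CPM and Syt2 at 76.99 ± 19.3 CPM.

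Cox6a2 had another order altogether. It was highest in thalamus at 145 ± 15.9 CPM, above the reticular and pallidal area at 125 ± 25.1 CPM in 7 of 8 sections. Isocortex at 56.3 ± 11.01 CPM and striatum at 52.8 ± 8.53 CPM followed and were not separable (isocortex higher in 5 of 8 sections), and choroid plexus was at 7.94 ± 4.11 CPM. Of a section's Cox6a2 UMIs, thalamic spots held 29.3% to 52.2%, and isocortical spots 23.1% to 40.3%. For Syt2 the isocortex held 31.9% to 55.0%, and for Pvalb 26.2% to 42.3%, while 39 to 67 reticular and pallidal spots held 8.31% to 32.7% of a section's Pvalb UMIs.

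**Figure D1:**
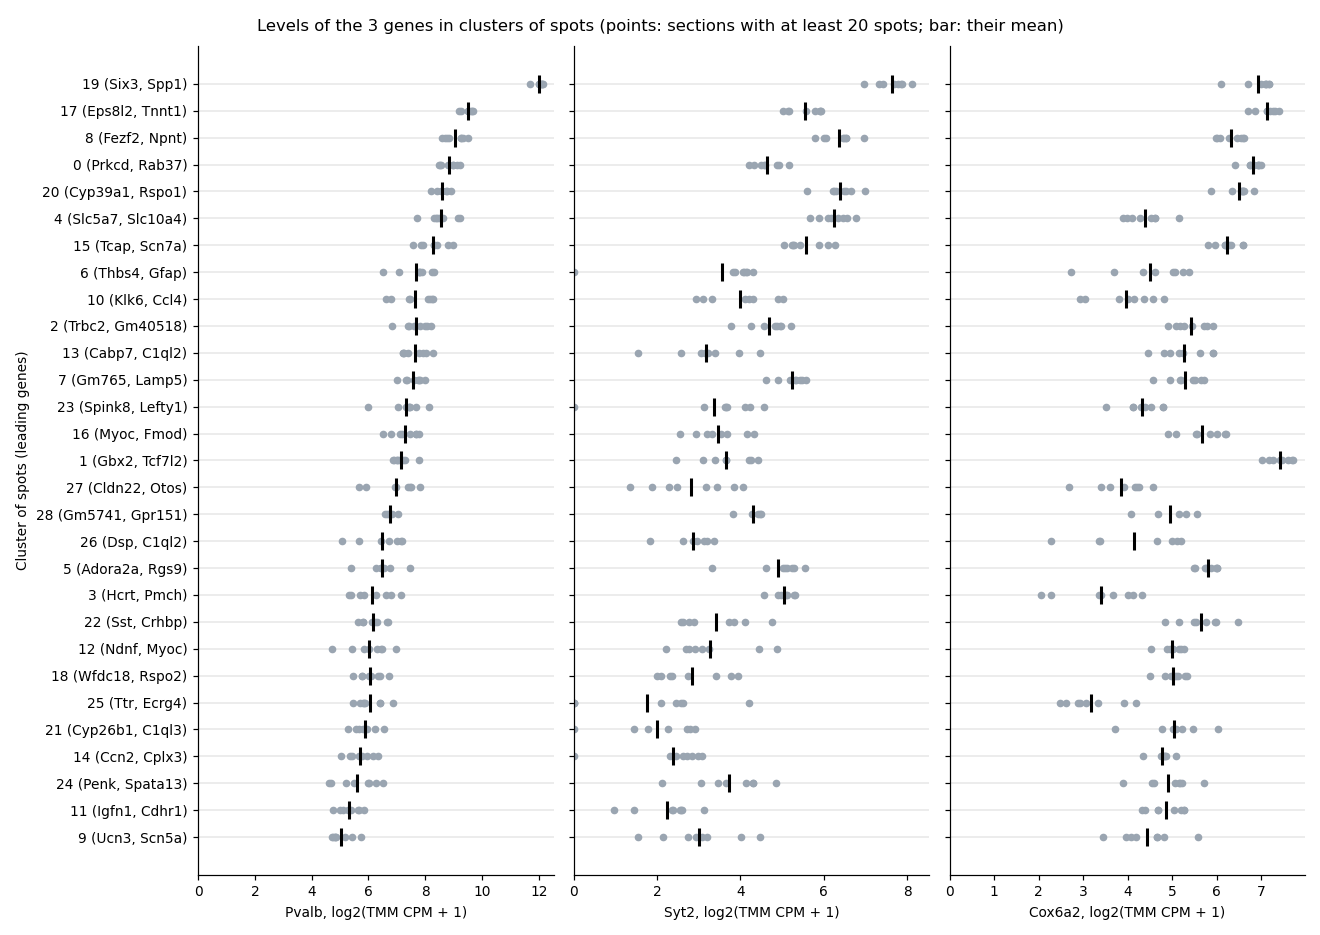
Level of each gene in the finer clusters of spots (log2 of TMM CPM + 1, points are sections with at least 20 spots, bars their mean on this scale). Pvalb and Syt2 peak in the cluster led by Six3 and Spp1, and Cox6a2 peaks in the thalamic cluster led by Gbx2.

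The 3 genes are known from fast-spiking interneurons, but a spot can hold several cells, so levels by area cannot assign them to a cell type. Isocortical spots had Gad1, a GABA-synthesizing enzyme, at 304 CPM and Lhx6, a transcription factor of interneurons born in the medial ganglionic eminence, at 11.3 CPM, beside the glutamate transporter Slc17a7 of pyramidal cells at 836 CPM (library totals, mean of 8 sections). Syt2 was among the 10 leading genes of the isocortical cluster led by the layer 5 gene Fezf2. Thalamic spots, where Cox6a2 was highest, had Gad1 at 51.8 CPM, Lhx6 at 0.857 CPM and Slc17a6, a glutamate transporter of relay neurons, at 435 CPM. Reticular and pallidal spots had Gad1 at 3458 CPM and Lhx6 at 0.885 CPM.

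Finer clusters resolved the thalamus and the isocortex. Among 3 thalamic clusters, Pvalb was 724 ± 83.3 CPM in cluster 17, led by Eps8l2 and Tnnt1, 463 ± 91.0 CPM in cluster 0, led by Prkcd, and 142 ± 33.2 CPM in cluster 1, led by Gbx2. Cox6a2 ran the other way within the main pair, at 172 ± 28.9 CPM in cluster 1 and 112 ± 13.9 CPM in cluster 0. Cluster 17, with the most Pvalb of the 3, had Cox6a2 at 140 ± 21.4 CPM, between those of the pair. In isocortex, the cluster led by Fezf2, a layer 5 transcription factor, had Pvalb at 536 ± 128 CPM and Syt2 at 83.4 ± 22.0 CPM. The cluster led by Cyp39a1 and Rspo1 had Pvalb at 390 ± 58.2 CPM, Syt2 at 85.0 ± 22.8 CPM and the highest isocortical Cox6a2, 90.2 ± 16.0 CPM. The cluster with the superficial marker Lamp5 had Pvalb at 194 ± 41.8 CPM, and the deepest one, led by Ccn2, had Pvalb at 53.5 ± 16.3 CPM and Syt2 at 4.96 ± 2.31 CPM. Among the 4 clusters named isocortex, all 3 genes were thus lowest in the Ccn2 cluster and highest in the Fezf2 and Rspo1 clusters. Cluster 2, led by Trbc2 (1294 spots), and cluster 15, led by Tcap (641 spots), did not take that name. Trbc2 and Tcap were also among the leading genes of the main isocortical clusters. Pvalb was 210 ± 60.7 CPM in cluster 2 and 323 ± 107 CPM in cluster 15.

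**Figure D2:**
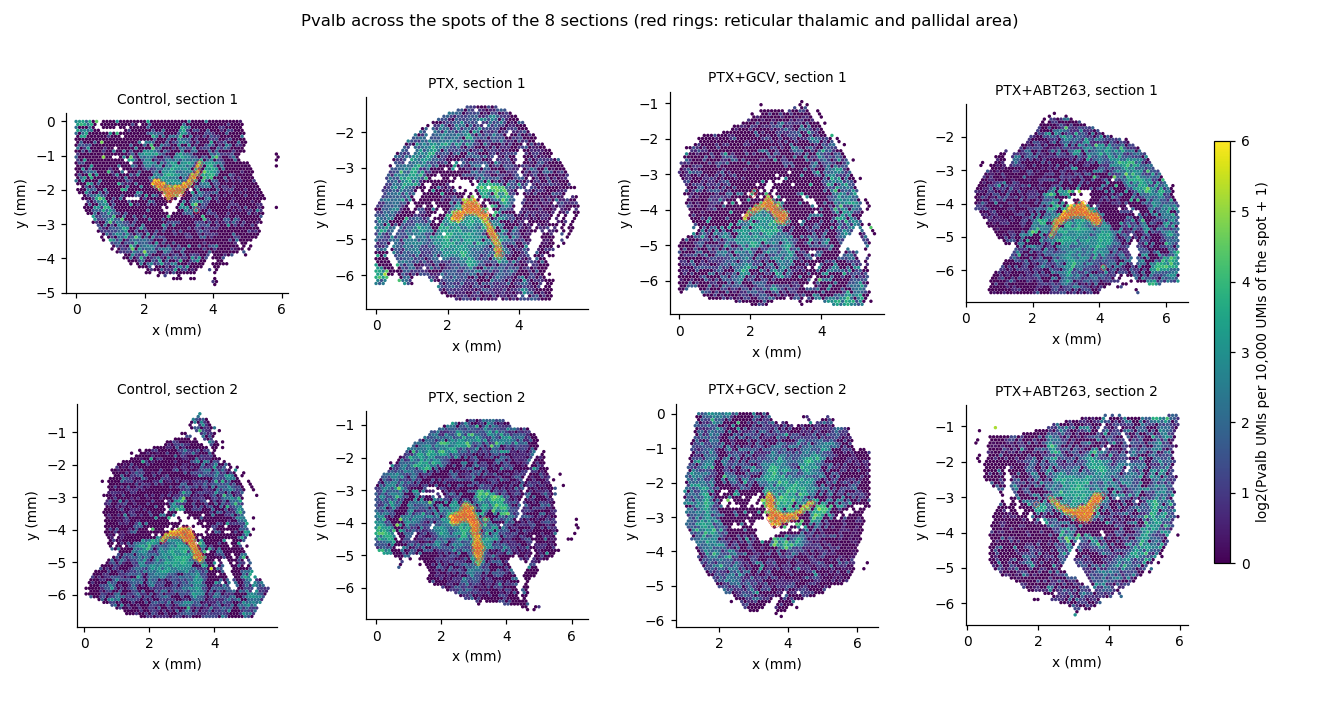
Pvalb in the spots of each section, as the log2 of depth-scaled UMIs, with reticular thalamic and pallidal spots ringed. The ringed spots belong to the area whose mean level exceeded that of the next area in 8 of 8 sections, and a lower signal lies over the isocortex.

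Whole sections were compared next, to ask whether PTX, and GCV or ABT263 after it, went with a different level. Pvalb was 217 and 209 CPM in the Control sections, 285 and 321 CPM in PTX, 173 and 193 CPM in PTX+GCV and 300 and 281 CPM in PTX+ABT263. Both PTX sections lay above both Control sections, both PTX+GCV sections below both PTX sections, and the PTX+ABT263 and PTX sections overlapped. Fitted log2 differences were 0.51 ± 0.08 (SE; 1.42-fold) for PTX over Control, -0.73 ± 0.08 for PTX+GCV over PTX and -0.06 ± 0.08 for PTX+ABT263 over PTX. In bulk sums of this kind, fewer cells and less RNA per cell cannot be told apart.

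Syt2 was 28.6 and 26.2 CPM in Control, 32.7 and 39.7 CPM in PTX, 22.4 and 25.8 CPM in PTX+GCV and 35.2 and 30.2 CPM in PTX+ABT263. The order of the groups was that of Pvalb, with log2 differences of 0.41 ± 0.11, -0.58 ± 0.11 and -0.15 ± 0.11. Cox6a2 was 41.3 and 51.1 CPM in Control, 57.1 and 57.0 CPM in PTX, 53.9 and 52.0 CPM in PTX+GCV and 64.8 and 55.2 CPM in PTX+ABT263. The Cox6a2 groups were apart in the same directions, with a PTX over Control difference of 0.30 ± 0.10 and a far smaller PTX+GCV over PTX difference of -0.11 ± 0.10. With 2 sections a group, lack of overlap is common: of 16674 genes, 21.8% had both PTX sections above Control and 20.5% below, 20.2% had both PTX+GCV sections below PTX and 20.6% above, and 22.3% lay on each side for PTX+ABT263 against PTX. These shares depend on the scaling. With library totals in place of TMM, 5332 genes had both PTX sections above Control and 2118 below, and 1354 genes had both PTX+ABT263 sections above PTX and 7846 below. The direction of the 3 genes in PTX against Control and in PTX+GCV against PTX was the same under both scalings, while the PTX+ABT263 sections fell below PTX for Pvalb under library totals.

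**Figure D3:**
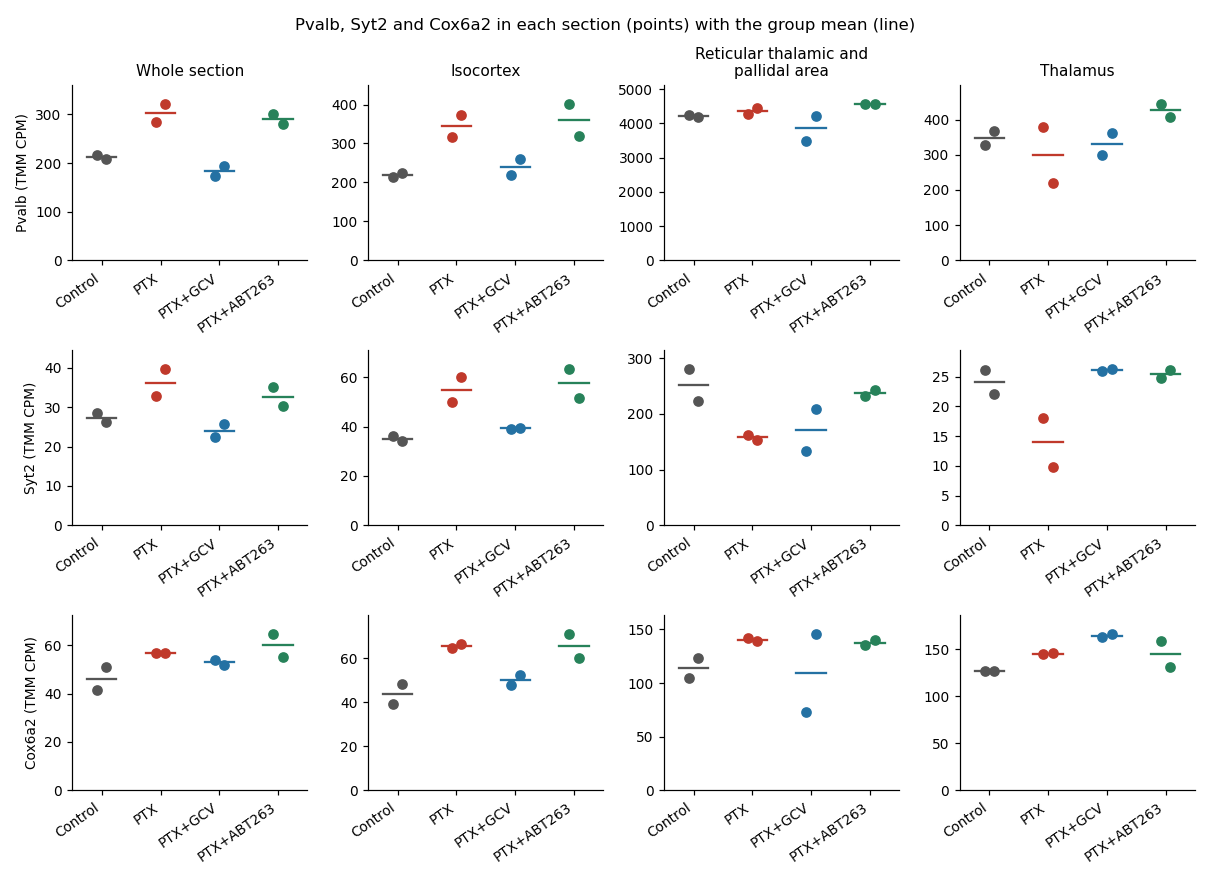
Level of each gene (TMM CPM) in whole sections, isocortex, thalamus and the reticular thalamic and pallidal area, 1 point per section and a bar at each group mean. In whole sections and isocortex PTX lies above Control and PTX+GCV below PTX for all 3 genes, and in thalamus and the reticular area Syt2 is lower in PTX than in Control.

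Sections differed in what they cut. Reticular and pallidal spots numbered 42 and 41 for Control, 51 and 67 for PTX, 39 and 41 for PTX+GCV and 52 and 48 for PTX+ABT263. Without these spots the log2 difference of Pvalb between PTX and Control was 0.53 ± 0.10, and that between PTX+GCV and PTX was -0.51 ± 0.10. When each area was given the same share in every section, the differences were 0.36 and -0.40.

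In the isocortex the 3 genes moved by like amounts. Pvalb was 214 and 224 CPM in Control, 317 and 373 CPM in PTX, 218 and 260 CPM in PTX+GCV and 401 and 318 CPM in PTX+ABT263. Syt2 was 36.2 and 34.2, 49.9 and 60.1, 39.2 and 39.6, and 63.5 and 51.8 CPM in the same order of groups. Cox6a2 was 39.4 and 48.4, 64.8 and 66.7, 47.8 and 52.5, and 71.1 and 60.0 CPM. For every one of the 3 genes both PTX sections lay above both Control sections and both PTX+GCV sections below both PTX sections, and the PTX+ABT263 sections overlapped PTX. The differences between PTX and Control were 0.66 ± 0.12 for Pvalb (1.57-fold), 0.65 ± 0.12 for Syt2 and 0.57 ± 0.11 for Cox6a2. Those between PTX+GCV and PTX were -0.53 ± 0.11, -0.48 ± 0.11 and -0.38 ± 0.10, and those between PTX+ABT263 and PTX were 0.06 ± 0.11, 0.07 ± 0.11 and -0.00 ± 0.10. Of 14447 genes in isocortex, 21.3% had both PTX sections above Control and 21.1% below, 19.2% had PTX+GCV below PTX and 18.5% above, and 21.8% lay on each side for PTX+ABT263. Isocortical depth moved in part with these groups: the median UMIs a spot were 8747 and 14966 for Control, 23224 and 17969 for PTX, 11107.5 and 18387 for PTX+GCV and 15427 and 17314 for PTX+ABT263, and its part in the result was not tested.

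Within the isocortex the PTX to Control difference of Pvalb was present in each of the 4 finer clusters named isocortex. Clusters 2 and 15, which did not take that name, are not counted here. Pvalb in the Fezf2 cluster was 453 and 440 CPM in Control, 610 and 645 CPM in PTX, 382 and 418 CPM in PTX+GCV and 729 and 614 CPM in PTX+ABT263. In the Lamp5 cluster it was 160 and 126, 195 and 252, 162 and 217, and 226 and 215 CPM. In the Ccn2 cluster, where the level was lowest, it was 40.1 and 41.5, 70.3 and 60.8, 32.0 and 49.3, and 53.6 and 80.3 CPM. PTX lay above Control in all of these. The clusters share sections, and the share of all genes apart was not computed within them. Over all isocortical spots, 21.3% of genes had both PTX sections above Control. Syt2 was apart in the same direction in 3 of the 4 clusters, the exception being the Fezf2 cluster with 92.4 and 63.6 CPM in Control and 91.7 and 88.6 CPM in PTX, and Cox6a2 in 4 of 4, by the least in the Ccn2 cluster with 26.3 and 25.8 CPM in Control and 26.8 and 27.4 CPM in PTX. Of 25 isocortical marker genes 0 passed between PTX and Control in edgeR. At an unadjusted p of 0.05, 4 were higher and 7 lower, against 12.7% of all isocortical genes in either direction, so a larger share of the layer markers than of all genes was below that level. Their medians were -0.06 for layers 2 and 3, 0.18 for layer 4, 0.13 for layer 5 and -0.29 for layer 6 on the log2 scale.

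**Figure D4:**
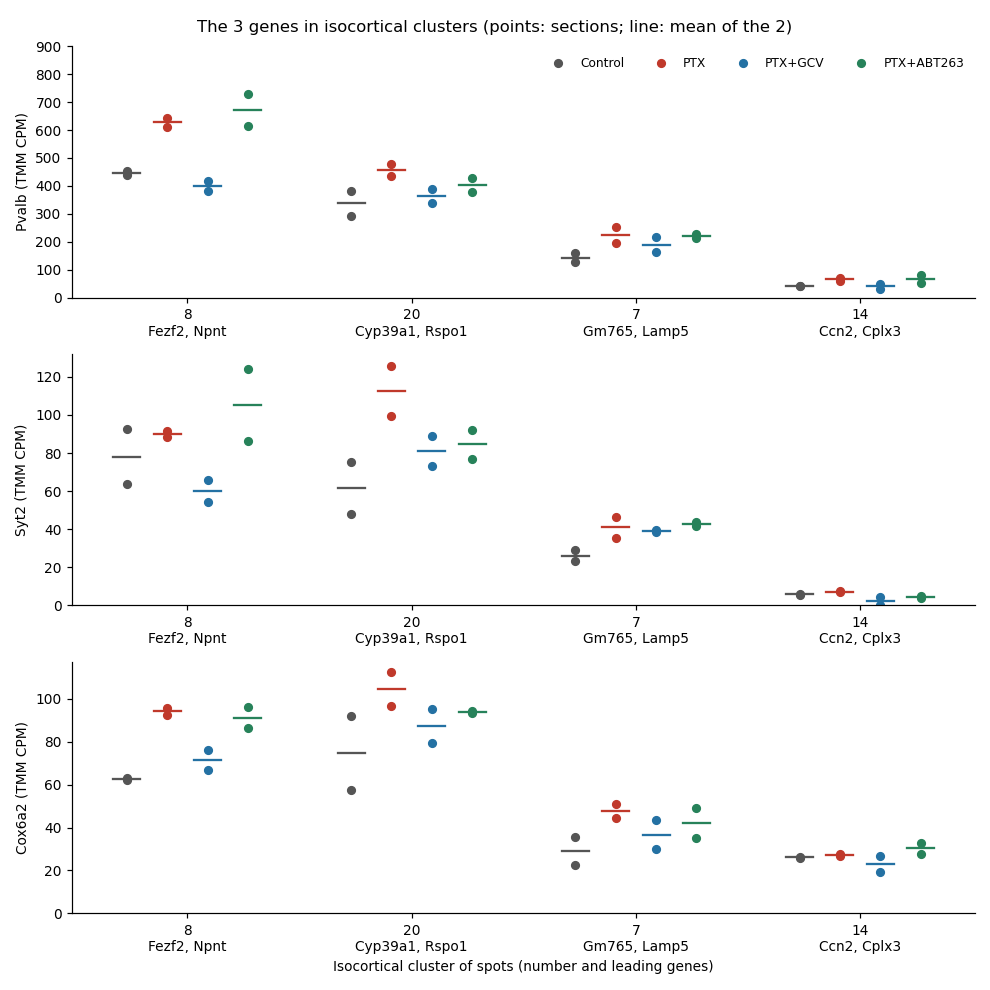
Level of the 3 genes in the 4 finer clusters named isocortex (TMM CPM, points are sections and lines the mean of both). Pvalb in PTX lies above Control in each cluster, including the Ccn2 cluster, where all levels are low.

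Elsewhere the signal of Pvalb in PTX was also higher. Among 10 areas with enough spots, Pvalb was apart and higher in PTX than in Control in 7 and lower in 0, and lower in PTX+GCV than in PTX in 8 and higher in 0. Across 26 finer clusters the counts were 17 and 0, and 0 and 18. In isocortex, thalamus and the reticular and pallidal area, 18.5% to 24.9% of all genes had both PTX sections above Control. Both PTX+GCV sections lay below PTX for 19.2% of genes in isocortex and 20.8% in thalamus. For areas without a fit and for finer clusters such shares were not computed. The clusters share sections and the 3 genes were chosen by their levels, so the counts are a description. The areas with higher Pvalb included hippocampus, with 75.9 and 138 CPM in Control and 207 and 210 CPM in PTX. They also included the meninges, with 40.5 and 67.0 CPM in Control and 104 and 120 CPM in PTX. Spots named meninges had Gad1 at 273 ± 28.6 CPM, against 304 ± 30.6 CPM in isocortex (SD, n = 8 sections), so they held RNA of neurons. Choroid plexus, which should lack the gene, had Pvalb in 11.5% to 31.7% of its spots at an equal depth of 3000 UMIs, Syt2 in at most 2.28% and Cox6a2 in 1.93% to 6.78%. Low levels in an area may thus include RNA from outside it. Syt2 was higher in PTX in 6 and lower in 3 of 12 clusters with enough UMIs, and Cox6a2 was higher in 11 and lower in 2 of 22.

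The share of isocortical spots with a UMI moved as the levels did. At 3000 UMIs a spot, Pvalb was found in 32.9% and 34.0% of Control spots, 48.5% and 51.5% of PTX, 38.1% and 46.0% of PTX+GCV and 49.1% and 44.6% of PTX+ABT263 spots. Syt2 was found in 9.11% and 7.72%, 12.04% and 14.4%, 9.90% and 10.4%, and 13.7% and 10.9%. Cox6a2 was found in 9.64% and 11.4%, 16.2% and 16.4%, 12.3% and 14.03%, and 15.7% and 13.3%. PTX lay above Control and PTX+GCV below PTX for all 3 genes, and each share of Pvalb was above the highest choroid plexus share. Without thinning the Pvalb shares ran from 55.1% to 86.8%.

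Co-detection in spots was part of what the 3 genes were chosen by and is given as a description. In isocortex, spots with both Pvalb and Syt2 were 1.57 ± 0.21 times as frequent at 3000 UMIs as the product of the single shares (SD, n = 8 sections, range 1.36 to 1.95). The ratio was 1.41 ± 0.10 for Pvalb with Cox6a2 and 1.601 ± 0.12 for Syt2 with Cox6a2, and each pair was above 1 in 8 of 8 sections. Pvalb with Gad1 gave 1.23 ± 0.09, Pvalb with Sst, a peptide of another interneuron class, gave 1.005 ± 0.03, and Pvalb with Vip gave 0.94 ± 0.06. Syt2 and Cox6a2 were not paired with these genes. The upper limit of such a ratio falls as the single shares rise, and Sst had 46894 isocortical UMIs against 4076 of Syt2. Ratios of genes with unlike shares are therefore not on 1 scale. In thalamus Pvalb with Syt2 gave 1.14 to 1.71, but Pvalb with Cox6a2 gave 0.91 to 1.04. Clusters with unlike levels contribute to all these ratios. As found, 6.95% to 38.0% of isocortical spots held all 3 genes, from 6.95% and 14.97% in Control to 38.0% and 33.6% in PTX, a span that follows depth as well as level.

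**Figure D5:**
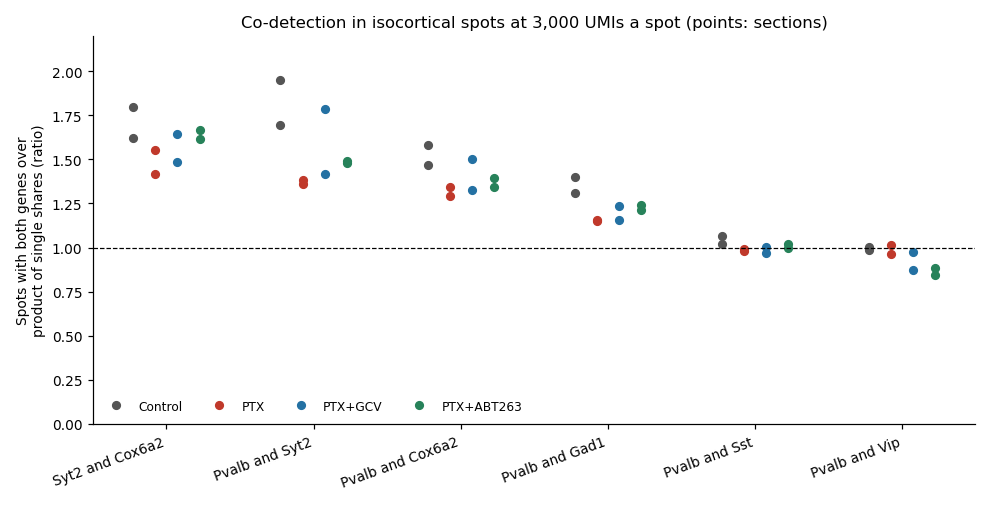
Observed over expected share of isocortical spots holding both genes of a pair at 3000 UMIs a spot, 1 point per section. The 3 pairs among Pvalb, Syt2 and Cox6a2 lie between 1.29 and 1.95, and the pairs of Pvalb with Sst and Vip lie between 0.85 and 1.06.

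Across 29 finer clusters, the genes most like each one were taken by Pearson's r of log2(CPM + 1), among 12442 genes. The clusters share libraries, so r is a description. For Pvalb these were Paqr4 (r = 0.88), Esrrg (0.86), the ceramide kinase gene Cerk (0.86), Ppargc1a (0.85), a coactivator of mitochondrial genes, and Ahcyl1 (0.85). For Syt2 they were Kcnab3 (0.85), a potassium channel subunit, Pvalb itself (0.82), Esrrg (0.80), Ndufaf2 (0.80), an assembly factor of respiratory complex I, and Vamp1 (0.80), a vesicle SNARE. Without the cluster led by Six3 and Spp1, r between Pvalb and Syt2 was 0.76. Those most like Cox6a2 included Scrt1 (0.86), Slc25a37 (0.83), AI593442 (0.83) and Plekhm2 (0.83), with r of 0.58 to Pvalb and 0.52 to Syt2.

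A list of 40 other genes of fast-spiking neurons was tested with edgeR over all genes, in 5 roles: channels, release machinery, GABA synthesis and lineage, the perineuronal net, and energy and axon genes. This list and the comparison lists below were chosen with earlier results of these data known. Their p-values and counts of genes passing are therefore given as a description, in whole sections and in isocortex. All 40 passed the filter on low counts in whole sections and in isocortex. In whole sections 0 of 40 passed a Benjamini-Hochberg adjusted p of 0.05 in any comparison, against 0.126% of all genes for PTX over Control, 0.0240% for PTX+GCV over PTX and 0.138% for PTX+ABT263 over PTX. At an unadjusted p of 0.05, 5 were higher and 2 lower in PTX than in Control, 0 higher and 7 lower in PTX+GCV than in PTX, and 4 higher and 8 lower in PTX+ABT263 than in PTX. Of all genes, 13.5%, 10.7% and 11.8% were below that level in the 3 comparisons, in either direction. DESeq2 called 1, 3 and 1 of them. The smallest edgeR p-values belonged to Gad1, which synthesizes GABA (log2 difference 0.36 ± 0.10, adjusted p = 0.18), and the axonal potassium channel Kcna1 (-0.87 ± 0.26, adjusted p = 0.18) for PTX over Control, and to Esrrg (-0.49 ± 0.08, adjusted p = 0.085) and the sodium channel subunit Scn4b (-0.59 ± 0.10, adjusted p = 0.098) for PTX+GCV over PTX.

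In isocortex, 0 of 40 passed between PTX and Control (0.291% of all genes did) and between PTX+GCV and PTX (0.0208%), with 8 higher and 2 lower, and 0 higher and 7 lower, at an unadjusted p of 0.05, where 12.7% and 7.02% of all genes were, in either direction. DESeq2 called 1 for PTX over Control, Vamp1. By role, 2 of 10 channel genes were higher in PTX and 1 lower at that level, 1 of 6 release genes was higher, 2 of 12 GABA and lineage genes were higher, 1 of 6 perineuronal net genes was lower and 3 of 6 energy and axon genes were higher. In PTX+GCV against PTX, 3 channel genes, 1 release gene and 3 energy and axon genes were lower, and 0 of the other roles at that level. The median of the whole list was 0.08 and -0.08 on the log2 scale, against 0.00 over all genes. Vamp1 was 155 and 130 CPM in Control, 179 and 194 CPM in PTX and 155 and 155 CPM in PTX+GCV, a PTX over Control difference of 0.39 ± 0.10 (edgeR, adjusted p = 0.10). Nefh, the heavy neurofilament, was 61.1 and 57.4 CPM in Control, 72.5 and 83.3 CPM in PTX and 63.5 and 63.0 CPM in PTX+GCV, a difference of 0.40 ± 0.10 (edgeR, adjusted p = 0.12). Kcna1 was the 1 gene of the list that passed in isocortex, in PTX+ABT263 over PTX (0.228% of all genes passed): 2.15 and 3.06 CPM in PTX and 6.12 and 9.40 CPM in the sections labelled PTX+ABT263, a difference of 1.57 ± 0.28 (edgeR, adjusted p = 0.026) that lost its call when PTX section 1 (1.33) or PTX+ABT263 section 2 (1.23) was left out.

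Genes of other interneuron classes served as a comparison, from a list chosen with the same knowledge of these data. Between PTX and Control, 5 of 12 were higher and 3 lower in whole sections at an unadjusted p of 0.05 in edgeR (13.5% of all genes in either direction). In isocortex 2 were higher and 1 lower (12.7%). Their median log2 differences were 0.13 in whole sections and 0.14 in isocortex, against 0.02 and 0.08 for the 40 fast-spiking genes. Of 12, 1 passed between PTX and Control in whole sections, Tac2, a tachykinin gene, at 29.4 and 20.5 CPM in Control and 42.4 and 47.5 CPM in PTX (0.87 ± 0.14, edgeR, adjusted p = 0.045), and its call was lost without Control section 2 (0.61), PTX section 1 (0.94) or 2 (0.78) or either PTX+ABT263 section (0.86 for both). In isocortex 1 passed, Cort, the cortistatin gene, at 41.5 and 48.7 CPM in PTX and 75.2 and 69.2 CPM in PTX+ABT263 (0.68 ± 0.11, edgeR, adjusted p = 0.011), and its call was lost without PTX section 1 (0.57) or PTX+ABT263 section 1 (0.62). With edgeR and with DESeq2, 0 of the 12 passed between PTX+GCV and PTX in whole sections and isocortex, and at an unadjusted p of 0.05 in edgeR 2 were higher and 0 lower in whole sections (10.7% of all genes in either direction) and 5 higher and 0 lower in isocortex (7.02%). A further list of 19 genes held family members of the 3 genes and 2 muscle-type subunits of the same oxidase, Cox7a1 and Cox8b. These 2 are not paralogues of Cox6a2. Of the 19, Cox8b passed for PTX+ABT263 over PTX in whole sections, with 9.52 and 8.01 CPM in PTX and 29.5 and 17.99 CPM in PTX+ABT263 (1.44 ± 0.19, edgeR, adjusted p = 0.010). This call was lost without PTX section 1 (1.57) or PTX section 2 (1.32). Cox8b was also among the 10 leading genes of the choroid plexus cluster, which had 28 and 33 spots for PTX and 37 and 25 for PTX+ABT263, and the part of that tissue in the difference was not tested. Of 11 skeletal muscle genes, listed to stand for muscle tissue on a section, 9 passed the filter on low counts in whole sections and 7 in isocortex. With edgeR 0 of the 11 passed in either, with at most 1 in each direction at an unadjusted p of 0.05 in any comparison, and DESeq2 called 1, Atp2a1, a calcium pump gene, as lower in PTX than in Control in whole sections. Acta1, skeletal muscle actin, was 22.7 to 26.4 CPM in all 8 sections. Thalamic spots held 702 of the 808 UMIs of Atp2a1, and isocortical spots 3253 of the 6793 of Acta1, so neither gene stands for muscle here. In thalamus Atp2a1 was lower in PTX than in Control (-1.20 ± 0.19, edgeR, adjusted p = 0.00089, where 7.08% of all genes passed). It was higher there in PTX+ABT263 than in PTX (0.85 ± 0.19, edgeR, adjusted p = 0.014, where 4.26% passed).

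The reticular thalamic and pallidal area, with the highest Pvalb, had PTX levels of Pvalb close above those of Control. Pvalb there was 4247 and 4179 CPM in Control, 4274 and 4453 CPM in PTX, 3493 and 4218 CPM in PTX+GCV and 4564 and 4551 CPM in PTX+ABT263, a PTX over Control difference of 0.05 ± 0.12 on the log2 scale. Syt2 was 281 and 224 CPM in Control, 163 and 154 CPM in PTX, 133 and 209 CPM in PTX+GCV and 233 and 243 CPM in PTX+ABT263. It was thus lower in PTX than in Control, a difference of -0.69 ± 0.18, and higher in PTX+ABT263 than in PTX, by 0.59 ± 0.17. Cox6a2 was 104 and 124 CPM in Control and 142 and 139 CPM in PTX (0.31 ± 0.23), from 31 to 107 UMIs a section in these 2 groups. Of 7153 genes in these spots, 18.5% had both PTX sections above Control and 18.2% below, and 0.224% passed the edgeR test.

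In thalamus the 3 genes parted. Pvalb was 327 and 368 CPM in Control, 380 and 218 CPM in PTX, 300 and 362 CPM in PTX+GCV and 444 and 409 CPM in PTX+ABT263, so PTX overlapped Control and the 2 PTX sections lay far from each other. Syt2 was 26.1 and 22.1 CPM in Control, 18.03 and 9.88 CPM in PTX, 25.9 and 26.3 CPM in PTX+GCV and 24.9 and 26.1 CPM in PTX+ABT263. Both PTX sections were below all 6 others, with a PTX over Control difference of -0.71 ± 0.21 that was -0.38 ± 0.19 without PTX section 2. Cox6a2 was 127.1 and 126.7 CPM in Control, 145 and 145 CPM in PTX, 163 and 166 CPM in PTX+GCV and 159 and 131 CPM in PTX+ABT263, a PTX over Control difference of 0.19 ± 0.10 and a PTX+GCV over PTX difference of 0.18 ± 0.10. Of 13160 genes in thalamus, 24.9% had both PTX sections above Control and 24.0% below, 20.9% had PTX+GCV above PTX and 20.8% below, and 24.2% had PTX+ABT263 above PTX and 24.7% below. The mixture of thalamic clusters differed too: cluster 0, with more Pvalb, had 141 and 173 spots for Control, 166 and 91 for PTX, 187 and 255 for PTX+GCV and 197 and 214 for PTX+ABT263. Within cluster 1 alone the Syt2 difference between PTX and Control was -0.76 ± 0.41 and that of Pvalb 0.02 ± 0.16, and within cluster 0 alone they were 0.11 ± 0.29 and 0.28 ± 0.15.

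Many of the 40 other genes listed for fast-spiking neurons differed between PTX and Control in the same thalamic spots. The list was chosen with earlier results of these data known, and the thalamic fit was added after seeing the counts. Its adjusted p-values are therefore given as a description. These spots had Gad1 at 51.8 CPM and Lhx6 at 0.857 CPM beside Slc17a6 at 435 CPM, and the genes were not assigned to a cell type. Between PTX and Control 2 rose and 15 fell (edgeR, adjusted p below 0.05), against 7.08% of all genes, and 38 of the 40 passed the filter on low counts. The list's median was -0.32 on the log2 scale, against 0.01 over all genes. Of 10 channel genes 8 fell (median -0.61), of 6 energy and axon genes 3 fell (-0.43), and of 6 genes of the release machinery 1 rose and 2 fell (-0.20). Of 12 GABA and lineage genes 1 rose and 1 fell, with a median of 0.21, and of 6 perineuronal net genes 1 fell, with a median of 0.03. Kcnc1, a Kv3 channel for rapid repolarization, was 356 and 332 CPM in Control and 222 and 167 CPM in PTX (-0.82 ± 0.12, edgeR, adjusted p = 0.00060). Cplx1, a complexin, was 1575 and 1432 CPM in Control and 981 and 765 CPM in PTX, and Vamp1 was 420 and 391.6 CPM in Control and 270 and 205 CPM in PTX. These fell by 0.78 ± 0.12 and 0.77 ± 0.12 (edgeR, adjusted p = 0.00092 and 0.0010). Nxph1, a ligand of neurexins, went the other way, from 22.4 and 27.4 CPM in Control to 65.0 and 80.8 CPM in PTX (1.50 ± 0.15, edgeR, adjusted p = 4.1e-05).

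PTX+ABT263 and PTX+GCV are compared with the same PTX sections, so the differences share them. Between PTX+ABT263 and PTX 11 of the 40 rose and 3 fell in thalamus (4.26% of all genes passed). Kcna1 was 2.11 and 1.35 CPM in PTX and 6.17 and 12.2 CPM in PTX+ABT263 (2.32 ± 0.41, edgeR, adjusted p = 0.0031), a call lost without PTX+ABT263 section 2 (1.78). Between PTX+GCV and PTX 1 passed, Nxph1, at 46.7 and 45.6 CPM in PTX+GCV (-0.65 ± 0.13, edgeR, adjusted p = 0.040; 0.236% of all genes), while 13 were higher and 2 lower at an unadjusted p of 0.05, where 11.1% of all genes were in either direction. DESeq2 did not call Nxph1 and called 3 others, Cplx1, Vamp1 and Kcnc1, as higher in PTX+GCV. With library totals edgeR called 0, and the Nxph1 call was also lost without PTX section 2 (-0.49) or either PTX+GCV section (-0.67 and -0.64). Of the 19 family members and oxidase subunits 6 rose between PTX and Control, among them the calcium buffers Calb1 (137 and 167 CPM in Control, 267 and 372 CPM in PTX) and Calb2 (85.5 and 115 CPM in Control, 220 and 519 CPM in PTX). Leaving out PTX section 2, the section with the fewest cluster 0 spots, left 3 genes of the fast-spiking list that rose and 6 that fell between PTX and Control, and leaving out Control section 1 left 3 and 7. Spots of cluster 1 alone gave 2 and 11, and spots of cluster 0 alone 2 and 2. For PTX+ABT263 over PTX the counts were 2 and 1 without PTX section 2 and 0 and 1 without PTX+ABT263 section 2. The part of the thalamic cluster mixture in these differences was not tested.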

How the data were processed

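Visium libraries of 8 coronal sections were made by the authors, who aligned the reads to mm10 with Space Ranger and deposited raw UMI counts per gene and spot, with no normalization. The authors' own clustering used Seurat 4.0 and its results are not used here. Spots with fewer than 200 genes, or with mitochondrial UMIs above 30%, were removed. Sections were normalized with SCTransform, integrated and clustered in Seurat 5.3.0 (20 components, resolution 0.15, and 1 for finer clusters) without Pvalb, Syt2, Cox6a2 and the 40 fast-spiking genes among the features. A cluster took an area's name when the area's markers were the most among its 10 leading genes. Counts were summed per section and area and fitted over all 8 sections with edgeR 4.0.16 (quasi-likelihood, TMM, filterByExpr, Benjamini-Hochberg over all genes tested), which also gave the SE. List genes under the filter were kept. Fits were tested on simulated data.

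The members and lists were chosen with earlier results of these data known, and the thalamic fit was added after seeing the counts. Named genes were the 3 members, up to 4 of each list that passed or otherwise the 2 with the smallest p, and for each member the 5 genes most like it among those of at least 10 CPM in a cluster; some genes that this rule names are not reported here. Spot shares were compared after exact thinning to 3000 UMIs, leaving out shallower spots. Alternatives were library totals, DESeq2 1.42.0, no filter, other spots, clusters and depths, and leaving out each section. Depth per section, 19870666 to 42886400 UMIs, limits the precision of low genes, and intervals between sections cover their spread only.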

Additional observations from a re-analysis of the deposited data

Results flagged for a closer look

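Opposite directions in 2 areas marked 4 results for the same gene and comparison. In each, every section of one group lay on one side of every section of the other in both areas. The difference between the areas was not tested. In any 1 of these areas, 18.2% to 24.9% of all genes lay apart on a given side in these comparisons. The share of genes apart in opposite directions in 2 areas was not computed. Syt2 in PTX against Control differed by -0.66 on the log2 scale in the reticular thalamic and pallidal area and by -0.85 in thalamus, against 0.64 in isocortex (log2 of mean levels per section). Syt2 in PTX+GCV against PTX differed by 0.97 in thalamus and by -0.47 in isocortex. Cox6a2 in PTX+GCV against PTX differed by 0.18 in thalamus and by -0.39 in isocortex. In thalamus Syt2 rested on 44 to 151 UMIs a section and Cox6a2 on 312 to 954.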

How the results depend on the processing

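With 2 sections a group the precision of every difference is low, and depth limits Syt2 most. For PTX over Control and PTX+GCV over PTX, no difference of Pvalb, Syt2 or Cox6a2 in whole sections or isocortex changed sign under an alternative. The near-zero differences of PTX+ABT263 over PTX did change sign under some, except that of Syt2 in whole sections. Whole-section Pvalb was 0.36 (PTX over Control) and -0.40 (PTX+GCV over PTX) with equal area shares, -0.51 (PTX+GCV over PTX) without reticular thalamic and pallidal spots, a choice made after seeing the data, and -0.17 (PTX+ABT263 over PTX) with library totals, and Syt2 was -0.35 (PTX+GCV over PTX) with equal area shares. The co-detection ratio was 1.28 for Pvalb with Cox6a2 at 5000 UMIs a spot, and with 2 UMIs for a positive spot it was 1.53 for that pair and 2.23 for Syt2 with Cox6a2. With 2 UMIs, a setting without thinning, Pvalb with Sst gave 1.06 and Pvalb with Vip gave 1.08.

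Leaving out each section in turn gave, in the order PTX over Control, PTX+GCV over PTX and PTX+ABT263 over PTX, these ranges in whole sections: 0.42 to 0.60, -0.81 to -0.64 and -0.14 to 0.03 for Pvalb, 0.26 to 0.54, -0.72 to -0.44 and -0.28 to -0.00 for Syt2, and 0.16 to 0.46, -0.13 to -0.08 and -0.05 to 0.19 for Cox6a2. In isocortex they were 0.54 to 0.77, -0.66 to -0.41 and -0.12 to 0.22 for Pvalb, 0.51 to 0.78, -0.60 to -0.34 and -0.086 to 0.21 for Syt2, and 0.44 to 0.74, -0.46 to -0.32 and -0.13 to 0.11 for Cox6a2. Counts of the 40 fast-spiking genes that passed ran from 0 to 1, 0 to 2 and 0 to 1 in whole sections, stayed at 0, 0 and 0 to 1 in isocortex, and ran from 9 to 18, 0 to 9 and 1 to 17 in thalamus.

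In the same order, 4, 5 and 7 of the 40 passed in whole sections with no filter on low counts, and 1, 3 and 1 with DESeq2. With only 2 groups in the fit 1 passed for PTX+GCV over PTX, and with library totals 2 for PTX+ABT263 over PTX. In isocortex 4 passed for PTX over Control and 1 for PTX+GCV over PTX with no filter, 1 for PTX over Control with DESeq2, and 0 for PTX+ABT263 over PTX after thinning to the smallest section. The thalamic fits were added after seeing the data: cluster 0 alone gave 4, 0 and 0, cluster 1 alone gave 0 for PTX+GCV over PTX, library totals gave 0 and 9 for the later 2 comparisons, and DESeq2 gave 3 (all higher in PTX+GCV, Nxph1 not among them) and 9. Syt5 in PTX+ABT263 over PTX was 0.077 in cluster 0 alone, against -0.92; the cause was not tested.

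Over all genes, PTX over Control in whole sections had 8 higher and 13 lower, against 314 and 560 with no filter, 27 and 125 with DESeq2, 17 and 37 with library totals, 0 and 2 with the replicate block and 0 and 0 without PTX section 2. PTX+GCV over PTX had 2 and 2, against 33 and 46 with DESeq2, and PTX+ABT263 over PTX had 14 and 9, against 26 and 92 with library totals. In isocortex PTX over Control had 9 and 33, against 131 and 286 with no filter, 17 and 94 with DESeq2 and 14 and 59 with library totals. Section numbers did not pair the samples (correlations of deviations from -0.19 to 0.18 over 6 pairs of groups). With the replicate block, Pvalb was 0.51, Syt2 0.41 and Cox6a2 0.30 in whole sections of PTX over Control, and Tac2 (0.86) lost its call.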

Other observations

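Pvalb also lay apart in PTX in a finer cluster outside the isocortex. In the cluster led by Slc5a7, a choline transporter gene, and Slc10a4, Pvalb was 391 and 354 CPM in Control, 567 and 602 CPM in PTX, 211 and 343 CPM in PTX+GCV and 318 and 336 CPM in PTX+ABT263. Here both senolytic groups lay below PTX, unlike in the isocortex, where PTX+ABT263 overlapped PTX. In the hypothalamus both senolytic groups were also below PTX, with Pvalb at 77.4 and 125 CPM in Control, 124 and 145 CPM in PTX, 90.8 and 56.3 CPM in PTX+GCV and 65.7 and 50.3 CPM in PTX+ABT263, although Control and PTX overlapped. Syt2 in the hypothalamus was 32.2 and 44.9 CPM in Control, 38.1 and 36.6 CPM in PTX, 34.1 and 38.7 CPM in PTX+GCV and 31.8 and 23.2 CPM in PTX+ABT263, so that only the sections labelled PTX+ABT263 lay apart from PTX. In the cluster led by Slc5a7, Syt2 was 71.1 and 109 CPM in Control and 80.3 and 93.3 CPM in PTX, which overlapped. The share of spots in that cluster also varied, from 96 spots in PTX+GCV section 1 to 182 in Control section 2. No test was run on these values, and the share of all genes apart in these spots was not computed.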
